A study of Mus musculus with 6 samples.

Results

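Members of the tumour necrosis factor (TNF) receptor family that give costimulatory, death or inflammatory signals to T cells were examined in splenic CD4+ T cells of mice in the acute phase of experimental autoimmune encephalomyelitis (EAE), in which immunised animals develop T cell attack on brain and spinal cord. The genes were Tnfrsf4, Tnfrsf9, Tnfrsf18, Tnfrsf1a, Tnfrsf1b, Tnfrsf14, Tnfrsf25, Tnfrsf26, Cd27 and Fas, taken by symbol from the deposited table. They are 10 of its 54532 genes, and all 10 passed the filter on low counts that left 16075 genes. They were chosen by family and with their counts in Ogt-KD against control libraries known, so folds and calls of that comparison are given for them as a description and support nothing.

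RNA was sequenced from 3 C57BL/6 mice labelled KD, with the genotype Ogtfl/wt CD4-Cre, and 3 C57BL/6 mice labelled control, with a wild type genotype. All 6 mice had EAE, and no age is stated. The X-linked gene Ogt encodes the enzyme O-GlcNAc transferase, which attaches N-acetylglucosamine to proteins inside the cell. Ogt-KD mice thus had a floxed copy of Ogt beside an intact one, and a CD4-Cre transgene, whose Cd4 promoter works in the CD4 and CD8 T cell lineages alike. Counts from whole samples do not show what share of the cells used or lost the floxed copy. No Cre is named in the controls, so an effect of Cre or of linked DNA cannot be told apart from one of Ogt. Whether mice were paired, as littermates or by day, is not stated.

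TNF receptors are bound by trimeric ligands of the TNF family on antigen-presenting cells or on other lymphocytes. Receptors without a death domain, such as those encoded by Tnfrsf4 (OX40), Tnfrsf9 (4-1BB), Tnfrsf18 (GITR), Tnfrsf1b (TNFR2), Tnfrsf14 (HVEM) and Cd27, recruit TRAF adaptors and activate NF-kB, which supports survival and division after antigen contact. Fas, Tnfrsf1a (TNFR1) and Tnfrsf25 (DR3) carry a death domain in the cytoplasm. In mice, OX40, 4-1BB, GITR and TNFR2 are found on regulatory T cells, and conventional T cells gain them on activation.

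Total counts were 18969803 to 25683453 in the Ogt-KD libraries and 18127031 to 24917282 in the controls. Ogt itself had 662, 599 and 459 CPM (reads per 1e+06 counted reads, with the library size scaled by its TMM factor) in Ogt-KD replicates 1, 2 and 3, against 599, 628 and 562 CPM in control replicates 1, 2 and 3. The groups overlapped at a log2 fold change of -0.06 (SE 0.15, edgeR), so these counts show no clear reduction of Ogt RNA. A count per gene includes exons that a floxed deletion may leave, and reads per exon were not examined. Cd3e, Cd4 and the other 6 of 8 T cell identity markers were tested and none was at 0, with summed levels of 3419 to 3787 CPM in Ogt-KD and 3551 to 3924 CPM in control libraries. Replicate 3 of each group stood apart along principal component 1 (44.8% of the variance). In bulk RNA, fewer cells of a type and less RNA per cell cannot be told apart.

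Promoters are shown for the 4 genes whose Ogt-KD libraries all lay above the controls, so that what they share and do not share in sequence can be seen. The windows run from 250 bases before to 50 bases after the start of a RefSeq transcript on GRCm38.p6, and 9 of the 10 members had an entry, with 11 windows in all. Capitals mark the kappa-B decamer, the consensus bound by NF-kB, and the AP-1 motif TGANTCA, each searched on both strands.
Tnfrsf4, chr4:156013445-156013744 (+ strand): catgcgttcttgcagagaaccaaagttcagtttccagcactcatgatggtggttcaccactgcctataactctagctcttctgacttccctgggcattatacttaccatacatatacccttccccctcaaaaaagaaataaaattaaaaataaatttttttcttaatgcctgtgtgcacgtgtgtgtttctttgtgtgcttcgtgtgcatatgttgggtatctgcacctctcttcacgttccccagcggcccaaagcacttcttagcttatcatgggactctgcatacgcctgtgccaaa
Tnfrsf9 upstream start, chr4:150919905-150920204 (+ strand): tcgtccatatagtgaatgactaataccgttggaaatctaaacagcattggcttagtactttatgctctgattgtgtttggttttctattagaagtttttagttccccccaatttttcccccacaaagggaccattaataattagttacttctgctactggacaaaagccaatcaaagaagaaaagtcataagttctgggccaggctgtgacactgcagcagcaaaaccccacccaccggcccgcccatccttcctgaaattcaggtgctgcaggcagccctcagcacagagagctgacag
Tnfrsf9 downstream start, chr4:150927749-150928048 (+ strand): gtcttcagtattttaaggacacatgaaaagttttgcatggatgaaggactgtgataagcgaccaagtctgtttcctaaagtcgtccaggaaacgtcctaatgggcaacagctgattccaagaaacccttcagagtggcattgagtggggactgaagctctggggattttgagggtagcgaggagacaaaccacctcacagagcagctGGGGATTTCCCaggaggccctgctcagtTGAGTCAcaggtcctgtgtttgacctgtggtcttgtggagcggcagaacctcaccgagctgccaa
Tnfrsf18, chr4:156026072-156026371 (+ strand): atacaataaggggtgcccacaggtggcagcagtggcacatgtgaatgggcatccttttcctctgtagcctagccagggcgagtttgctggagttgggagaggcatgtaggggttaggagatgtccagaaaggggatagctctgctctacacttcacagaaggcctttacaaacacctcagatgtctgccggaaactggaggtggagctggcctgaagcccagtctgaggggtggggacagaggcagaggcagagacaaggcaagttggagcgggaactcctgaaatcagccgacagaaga
Tnfrsf1b, chr4:145246821-145247120 (- strand): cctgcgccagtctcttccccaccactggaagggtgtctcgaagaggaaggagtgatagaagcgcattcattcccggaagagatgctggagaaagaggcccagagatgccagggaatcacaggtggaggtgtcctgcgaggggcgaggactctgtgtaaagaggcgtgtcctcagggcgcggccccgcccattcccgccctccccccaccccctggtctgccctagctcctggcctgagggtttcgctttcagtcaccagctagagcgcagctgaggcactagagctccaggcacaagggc
The window at the downstream start of Tnfrsf9 held 2 overlapping matches to the kappa-B decamer, at positions -43 and -42 from the start base, and an AP-1 match at -15. The windows of Tnfrsf4, Tnfrsf18 and Tnfrsf1b and the upstream one of Tnfrsf9 held neither. Of the members' 11 windows, 2 held the decamer, the other being one of Tnfrsf25, and 2 held the AP-1 motif, the other being that of Fas. Of all 32851 windows, 8.46% held the decamer and 7.81% the AP-1 motif. The NFAT core TGGAAA was found at -220 in Tnfrsf4 and at -221 in the upstream window of Tnfrsf9, so in 2 of the 11 windows and in 21.4% of all. The SP1 box GGGCGG was found at -10 in that Tnfrsf9 window and at -67 and -57 in Tnfrsf1b, and in 4 of the 11 windows and 35.7% of all. Neither is in capitals, and no searched motif was in the windows of all 4 genes. The Tnfrsf4 window begins inside Sdf4, the upstream gene on the same strand, which ends at 156013610, and the NFAT match of Tnfrsf4 lies within Sdf4. A match describes the letters and shows no binding.

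The receptors OX40, 4-1BB, GITR and TNFR2 had more RNA in every Ogt-KD library than in any control library. Their levels in Ogt-KD were 1.42 to 1.72 times those of the controls. The other 6 genes had overlapping groups and folds between 0.862 and 1.07. Among them were Cd27, Tnfrsf14 and Tnfrsf25 as well as the death receptor genes Fas and Tnfrsf1a, so costimulatory receptors fell on both sides. Across all tested genes, 7.43% had their Ogt-KD libraries all higher and 5.88% all lower, against 4 and 0 of the 10 members. Since these values chose the members, nothing is read from that share.

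**Figure D1:**
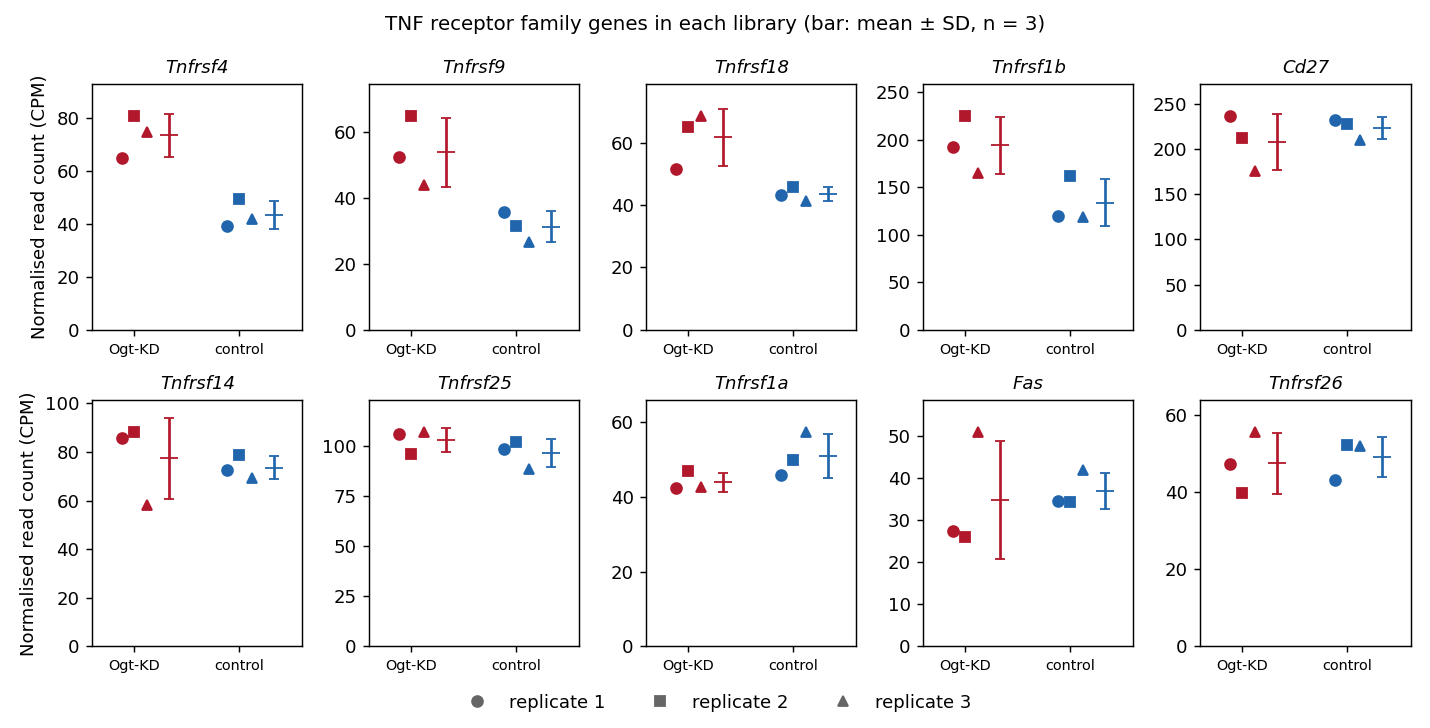
Normalised read counts (CPM, y axis from 0) of the 10 receptor genes in the 3 Ogt-KD libraries (red, left) and the 3 control libraries (blue, right), with symbols for the replicate number and bars for mean ± SD. The Ogt-KD points of Tnfrsf4, Tnfrsf9, Tnfrsf18 and Tnfrsf1b all lie above the control points, and those of the other 6 genes overlap them.

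Tnfrsf4 encodes OX40, a receptor of recently activated and regulatory T cells that prolongs their survival. It had 65.0, 81.0 and 74.8 CPM in Ogt-KD replicates 1, 2 and 3, against 39.2, 49.4 and 42.1 CPM in control replicates 1, 2 and 3. The lowest Ogt-KD library lay well clear of the highest control. On the log2 scale the fold change was 0.76 (SE 0.12, 95% interval 0.46 to 1.05, edgeR), and the same-numbered libraries differed by 0.73, 0.71 and 0.83.

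Tnfrsf9 encodes 4-1BB, an inducible receptor that is found on activated CD4 and CD8 T cells. It had 52.4, 65.0 and 44.1 CPM in Ogt-KD replicates 1, 2 and 3, against 35.9, 31.5 and 26.5 CPM in the controls. Replicate 3 was the lowest library of each group and the groups did not overlap. The fold change was 0.78 on the log2 scale (SE 0.17, 95% interval 0.37 to 1.19), with 0.55, 1.05 and 0.73 between same-numbered libraries.

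Tnfrsf18 encodes GITR, which is carried by regulatory T cells at rest and by conventional T cells after activation. It had 51.4, 64.9 and 68.6 CPM in the Ogt-KD libraries and 43.3, 45.7 and 41.3 CPM in the controls. The controls were close together, and the Ogt-KD libraries were spread over a wider range. Its log2 fold change was 0.50 (SE 0.12, 95% interval 0.21 to 0.80), and the differences between same-numbered libraries were 0.25, 0.51 and 0.73. Without replicate 3 of both groups the log2 fold change was 0.38.

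Tnfrsf1b encodes TNFR2, the TNF receptor without a death domain. It had 192, 225 and 165 CPM in the Ogt-KD libraries, against 120, 162 and 119 CPM in the controls. The gap between the groups was narrow, between 165 CPM in Ogt-KD replicate 3 and 162 CPM in control replicate 2. The log2 fold change was 0.54 (SE 0.17, 95% interval 0.15 to 0.93), with 0.68, 0.48 and 0.48 between same-numbered libraries.

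Tnfrsf1a, which encodes TNFR1, the receptor through which TNF can start cell death, had a lower mean in Ogt-KD. It had 42.3, 46.8 and 42.5 CPM in the Ogt-KD libraries and 45.8, 49.7 and 57.2 CPM in the controls. Each Ogt-KD library was below its same-numbered control, and the groups overlapped at a single library, Ogt-KD replicate 2. Its log2 fold change was -0.21 (SE 0.11, 95% interval -0.47 to 0.04), -0.14 without control replicate 3 and -0.10 without replicate 3 of both groups. TNFR1 and TNFR2 bind the same ligand, TNF.

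Fas encodes the death receptor that removes activated T cells. It had 27.5, 25.9 and 50.8 CPM in Ogt-KD replicates 1, 2 and 3, against 34.5, 34.3 and 41.9 CPM in the controls. Ogt-KD replicate 3 was the highest of the 6 libraries and the other Ogt-KD libraries were the lowest. The log2 fold change was -0.08 (SE 0.26), -0.47 without Ogt-KD replicate 3 and -0.37 without replicate 3 of both groups. Replicate 3 also held the highest summed level of 9 macrophage and monocyte markers in each group, at 878, 981 and 3596 CPM in Ogt-KD replicates 1, 2 and 3 and 1720, 1764 and 3956 CPM in the controls. Lyz2 and Ly6c2 did not follow this, with replicate 3 highest in neither group, while each other marker on the list was highest there. Of the 9 markers 2 were above 0 in log2 fold change, none was at 0 in counts, and their part in the Fas values was not tested.

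Cd27, a costimulatory receptor of naive and memory T cells, had 237, 212 and 175 CPM in the Ogt-KD libraries and 232, 227 and 210 CPM in the controls. The groups overlapped, and for Cd27 the log2 difference was -0.10 (SE 0.12, 95% interval -0.39 to 0.19), or 0.01 without Ogt-KD replicate 3. Tnfrsf14, which encodes HVEM, had 85.9, 88.1 and 58.3 CPM in the Ogt-KD libraries and 72.4, 78.8 and 69.5 CPM in the controls. Its Ogt-KD replicates 1 and 2 were the highest libraries and replicate 3 the lowest. The log2 fold change of Tnfrsf14 was 0.07 (SE 0.16), and 0.24 without Ogt-KD replicate 3.

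Tnfrsf25 encodes DR3, the receptor for TL1A, which costimulates T cells despite its death domain. It had 106, 96.3 and 107 CPM in the Ogt-KD libraries and 98.6, 102 and 88.7 CPM in the controls. The groups overlapped, and the log2 fold change was 0.10 (SE 0.09, 95% interval -0.12 to 0.31), 0.02 without control replicate 3 and 0.01 without replicate 3 of both groups. Tnfrsf26, which in the mouse lies beside the related genes Tnfrsf22 and Tnfrsf23, had 47.4, 39.7 and 55.6 CPM in the Ogt-KD libraries and 43.1, 52.2 and 51.9 CPM in the controls. Its log2 fold change was -0.04 (SE 0.15), and how reads shared among such copies were counted is not stated.

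**Figure D2:**
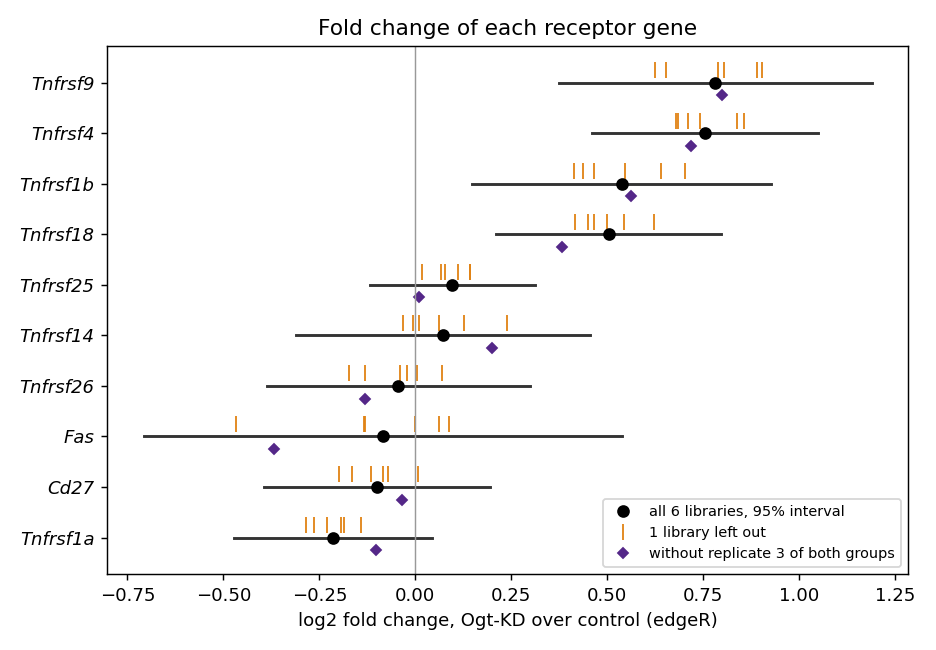
Fold change on the log2 scale, Ogt-KD over control, for each receptor gene (x axis, edgeR), with the 95% interval from all 6 libraries (black), the values with 1 library left out (orange ticks) and the value without replicate 3 of both groups (purple). Tnfrsf9, Tnfrsf4, Tnfrsf1b and Tnfrsf18 stay above 0 throughout, while Tnfrsf14, Tnfrsf26, Fas and Cd27 have values on both sides of 0. The former had every Ogt-KD library above every control, so leaving libraries out could hardly turn their sign and adds no support.

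None of the 10 genes had an adjusted p under 0.05 in the edgeR quasi-likelihood test over all genes, where 0.00622% of genes were called (1 of 16075). At an unadjusted p under 0.05 there were 4 members, all higher in Ogt-KD, where 7.52% of all tested genes passed, 5.04% higher and 2.48% lower. With the replicate number as a block, 0.292% of genes were called, and among them was 1 member, Tnfrsf4 (edgeR adjusted p = 0.0363, against 0.48 without the block and a range of 0.00216 to 1 over the 15 alternatives). Tnfrsf9 and Tnfrsf1b had an adjusted p of 0.055 and 0.0559 in the blocked edgeR fit. With the block and without replicate 1, 2 or 3 of both groups in turn, 1.81%, 0.0124% and 1.81% of genes and 4, 0 and 2 members were called. DESeq2, with 0.681% of genes called (111 of the 16308 given an adjusted p), called Tnfrsf4 (adjusted p = 0.00427) and Tnfrsf9 (0.0268). In the authors' deposited table, where 0.417% of genes had an adjusted p under 0.05 (110 of 26365, so over more genes), the same 2 members did, Tnfrsf4 at 0.00427 and Tnfrsf9 at 0.027. Both rest on the same counts, with log2 fold changes of 0.75 for Tnfrsf4 and 0.78 for Tnfrsf9 in each. The authors' values are thus no separate evidence.

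Between genes, levels are given as the authors' FPKM, which divides counts by gene length. Cd27 was the most abundant of the 10 in all 6 libraries, at 88.6 ± 12.7 FPKM in Ogt-KD and 95.3 ± 4.90 FPKM in control libraries (SD, n = 3 each). By the mean over all 6 libraries Tnfrsf14 followed, at 53.4 ± 11.2 FPKM in Ogt-KD and 50.9 ± 3.58 FPKM in control libraries, and Tnfrsf25 at 45.0 ± 2.73 FPKM in Ogt-KD and 42.2 ± 3.19 FPKM in control libraries. Neighbours in this pooled order overlapped in range from Tnfrsf14 down, and the order of the means differed between the groups. Tnfrsf1b had 50.4 ± 7.64 FPKM in Ogt-KD and 34.9 ± 6.69 FPKM in control libraries, and Tnfrsf4 53.5 ± 5.91 FPKM in Ogt-KD and 31.8 ± 4.07 FPKM in control libraries. Tnfrsf18 had 40.1 ± 6.05 FPKM in Ogt-KD and 28.4 ± 1.56 FPKM in control libraries and lay below Tnfrsf4 in 6 of 6 libraries.

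Fas, Tnfrsf1a, Tnfrsf9 and Tnfrsf26 were the least abundant, and neighbours among them overlapped too. Fas had 19.2 ± 7.81 FPKM in Ogt-KD and 20.4 ± 2.42 FPKM in control libraries, and Tnfrsf1a 16.8 ± 0.943 FPKM in Ogt-KD and 19.6 ± 2.30 FPKM in control libraries. Tnfrsf9 had 19.6 ± 3.75 FPKM in Ogt-KD and 11.4 ± 1.66 FPKM in control libraries, and Tnfrsf26 14.7 ± 2.52 FPKM in Ogt-KD and 15.2 ± 1.71 FPKM in control libraries. Tnfrsf9 was thus rank 7 of 10 by mean FPKM in Ogt-KD and rank 10 in control libraries.

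Tnfrsf4 took 11.8%, 14.0% and 14.3% of the summed FPKM of the 10 genes in Ogt-KD replicates 1, 2 and 3, against 8.32%, 9.73% and 9.14% in the controls. It was rank 2 by mean FPKM in Ogt-KD and rank 5 in control libraries. Cd27 took 25.1%, 21.5% and 19.6% in the Ogt-KD libraries and 28.9%, 26.2% and 26.7% in the controls. The sum itself was 400.5, 420, and 383 FPKM in the Ogt-KD libraries and 341, 373 and 336 FPKM in the controls. Shares of a sum are tied to each other, so a higher share of one gene lowers the rest.

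The 4 receptors that were higher were set against the markers of the cells that carry them. Of 12 regulatory T cell markers, 11 were above 0 (median log2 fold change 0.49), against -0.005 over all tested genes, and none was at 0. Their summed level was 1118 to 1288 CPM in Ogt-KD and 792 to 1033 CPM in control libraries. The marker below 0, named here after its values were seen, was Gpr83 (-0.25, SE 0.25). Foxp3, the transcription factor that defines regulatory T cells, had 103, 135 and 84.5 CPM in the Ogt-KD libraries and 57.6, 85.1 and 55.9 CPM in the controls (log2 fold change 0.70, SE 0.22). Its groups overlapped, since Ogt-KD replicate 3 lay just under control replicate 2. Ikzf2, which encodes Helios, a transcription factor of regulatory T cells, had a log2 fold change of 0.69 (SE 0.15). Lrrc32 and Capg had 0.53 (SE 0.14) and 0.38 (SE 0.10). In edgeR none of the 12 passed over all genes. Foxp3 and Ikzf2 passed with the replicate block (edgeR adjusted p = 0.0427 and 0.0406), where 0.199% of all tested genes were called higher.

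Relative to Foxp3 in the same library, the 4 receptors had overlapping groups. Foxp3 itself had a log2 fold change of 0.70, so a ratio to it lowers the fold of any gene. Tnfrsf4 stood at 0.631, 0.601 and 0.885 times the CPM of Foxp3 in Ogt-KD replicates 1, 2 and 3, against 0.681, 0.580 and 0.753 times in the controls. For Tnfrsf9 the ratios were 0.509, 0.482 and 0.522 in Ogt-KD and 0.623, 0.370 and 0.474 in control libraries. The Tnfrsf18 ratios were 0.499, 0.481 and 0.811 in Ogt-KD and 0.752, 0.537 and 0.739 in control libraries. Neither group was set apart in any of these.

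Tnfrsf1b stood at 1.86, 1.67 and 1.95 times Foxp3 in Ogt-KD and 2.09, 1.91 and 2.12 times in control libraries. Each Ogt-KD ratio of Tnfrsf1b was below that of the same-numbered control, and so was each of its ratios to Ikzf2, at 0.932, 0.906 and 0.754 in Ogt-KD and 1.02, 0.970 and 0.900 in control libraries. This also held for Tnfrsf18 relative to Ikzf2, though barely in replicate 3. Its ratios were 0.25, 0.261 and 0.313 in Ogt-KD and 0.368, 0.273 and 0.314 in control libraries. Relative to Ikzf2 the groups of all 4 receptors overlapped as well, and the Tnfrsf4 ratio ran from 0.316 to 0.341 in Ogt-KD and from 0.295 to 0.333 in control libraries. These are ratios of whole-sample RNA and do not say which cells held the receptors. Ikzf2, like Foxp3, had a higher mean in Ogt-KD, so the overlap follows in part from the choice of divisor. No gene with a fold near 0 was used as a divisor, and the ratios were not tested.

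**Figure D3:**
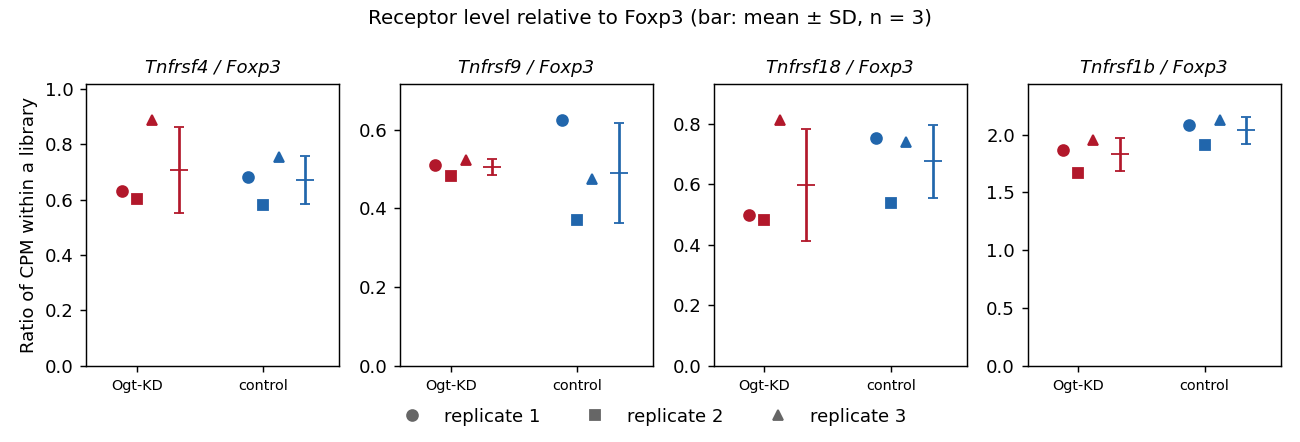
Ratio of the CPM of Tnfrsf4, Tnfrsf9, Tnfrsf18 and Tnfrsf1b to that of Foxp3 in the same library (y axis from 0), for the 3 Ogt-KD libraries (red, left) and the 3 control libraries (blue, right), with bars for mean ± SD. The groups overlap in all 4 panels, for example at 0.601 to 0.885 in Ogt-KD and 0.580 to 0.753 in control libraries for Tnfrsf4. Foxp3 itself had a higher mean in Ogt-KD, which lowers the ratios there.

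Of 10 markers of activated T cells, 4 had groups that did not overlap, all higher in Ogt-KD, against 7.43% of all tested genes. Above 0 were 9 of the 10 (median log2 fold change 0.36), with none at 0 and summed levels of 1610 to 1746 CPM in Ogt-KD and 1092 to 1440 CPM in control libraries. The exception was Cd69, an early activation marker named here after its values were seen, at 130 to 245 CPM in Ogt-KD and 206 to 319 CPM in control libraries (-0.60, SE 0.26), lower in each same-numbered pair. Il2rb (0.52, SE 0.12), a chain of the interleukin 2 receptor, and Gzmb (1.32, SE 0.34), which encodes granzyme B, had the smallest p values. All 8 naive T cell markers lay below 0, with a median of -0.27 and sums of 3363 to 4139 CPM in Ogt-KD and 4395 to 4768 CPM in control libraries, and Klf2, a factor that keeps T cells quiescent, had -0.49 (SE 0.10). None of these activated and naive markers passed in edgeR with or without the block. All 11 markers of dendritic cells and antigen presentation were above 0, with a median of 1.07 and sums of 1048 to 2814 CPM in Ogt-KD and 573 to 1213 CPM in control libraries, none at 0. In edgeR none of the 11 passed without the block and 4 did with it, where 0.199% of all tested genes were called higher. Of 7 B cell markers 7 lay above 0, with sums of 130 to 171 CPM in Ogt-KD and 97.1 to 138 CPM in control libraries, and all 10 erythroid markers did, none called without the block and 2 with it, with sums of 118 to 347 CPM in Ogt-KD and 90.0 to 142 CPM in control libraries. The erythroid list shares Tfrc with the activated T cell markers. Of the erythroid sums, Tfrc made up 73.8, 75.1 and 134 CPM in Ogt-KD and 77.0, 71.6 and 89.5 CPM in control libraries. Neutrophil markers, 8 of 8 above 0, had sums of 112 to 267 CPM in Ogt-KD and 98.7 to 207 CPM in control libraries, and CD8 T and NK markers, 4 of 5 tested above 0, had 38.0 to 40.9 CPM in Ogt-KD and 34.7 to 37.5 CPM in control libraries. The part of these cells in the receptor values was not tested.

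The ligands were examined in the same libraries. Of 11 tested ligand and counter-receptor genes 7 were above 0 (median 0.14 on the log2 scale), and none passed in edgeR with or without the block. Tnf, the ligand of both TNF receptors, had 22.4, 27.6 and 14.2 CPM in the Ogt-KD libraries and 14.8, 13.3 and 11.3 CPM in the controls. Ogt-KD replicate 3 lay within the control range, and the log2 fold change was 0.70 (SE 0.25). Tnfsf4, which encodes the ligand of OX40, had 11, 18 and 22 reads in Ogt-KD and 4, 6 and 11 reads in control libraries, too few for a precise fold.

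Tnfsf14 (0.22, SE 0.14), which encodes the HVEM ligand LIGHT, and Btla (0.12, SE 0.31), a counter-receptor of HVEM, had overlapping groups. Tnfsf9 (0.14, SE 0.38), Tnfsf18 (-0.41, SE 0.36) and Fasl (-0.22, SE 0.22), the ligand genes of 4-1BB, GITR and Fas, did too. Tnfsf15, for the DR3 ligand TL1A, had at most 0.710 CPM in Ogt-KD and 0.483 CPM in control libraries (0.89, SE 0.66). Lta, for lymphotoxin alpha, had 0.18 (SE 0.12), and its groups did not overlap. Cd70, for the CD27 ligand, had 3 to 9 reads in Ogt-KD and 0 to 7 reads in control libraries and was not tested.

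Inside the cell the receptors signal through TRAF adaptors or death-domain proteins. Of 18 such adaptor, caspase and ubiquitin enzyme genes 11 were above 0 (median 0.02 on the log2 scale), and none passed with or without the block. Traf1, an adaptor that is itself induced by NF-kB, had 239, 267 and 141 CPM in the Ogt-KD libraries and 174, 177 and 135 CPM in the controls (0.41, SE 0.24). Replicate 3 was low in both groups. Traf4 had -0.29 (SE 0.16) and Traf5, an adaptor of OX40 and CD27, had -0.14 (SE 0.09). The groups of Traf5 narrowly did not overlap, at 44.5 to 49.0 CPM in Ogt-KD and 49.6 to 54.8 CPM in control libraries. Of all tested genes, 5.88% had their Ogt-KD libraries all lower. Traf2, Traf3 and Traf6 had 0.07 (SE 0.14), -0.02 (SE 0.17) and -0.08 (SE 0.08), with overlapping groups.

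Of 14 NF-kB pathway genes 7 lay above and 7 below 0, with a median of 0.01. Rel and Relb, which encode NF-kB subunits, had 0.29 (SE 0.21) and 0.36 (SE 0.27). Tnfaip3, which encodes A20, an enzyme that ends NF-kB signalling from TNF receptors, was lower, at 389, 512 and 630.5 CPM in Ogt-KD and 717, 1022 and 949 CPM in control libraries (-0.81, SE 0.21). It was the 1 gene of these 14 called with the replicate block (edgeR adjusted p = 0.0481, against 0.526 without it), where 0.0933% of all tested genes were called lower.

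Of 10 survival and target genes of NF-kB, 9 lay above 0 with a median of 0.48. Bcl2l1, for the survival protein Bcl-xL, had 0.44 (SE 0.11), Il2ra, the high-affinity interleukin 2 receptor chain, 0.55 (SE 0.18), and the chemokine gene Ccl5 1.04 (SE 0.28). Bcl2a1d had 0.46 (SE 0.14), and it has near-identical copies among which reads may be split. None of the 10 passed without the block and Ccl5 passed with it (edgeR adjusted p = 0.0363), where 0.199% of all tested genes were called higher. This list shares Il2ra with the regulatory T cell markers, and Birc5, also on it, is a cell division gene.

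Of 18 further genes of the TNF receptor family 13 were tested, 6 above and 7 below 0, with a median of -0.08, and 3 (Tnfrsf11b, Eda2r and Edar) had no read in any library, a limit of 3 counts a library. Tnfrsf8, for the activation receptor CD30, had 12.6, 17.0 and 9.11 CPM in the Ogt-KD libraries and 5.39, 7.49 and 9.12 CPM in the controls (0.81, SE 0.29). Ogt-KD replicate 3 was level with control replicate 3. Tnfrsf23 had 0.57 (SE 0.20), Tnfrsf12a -0.48 (SE 0.20), and Tnfrsf13b 0.25 (SE 0.12), and none of the 13 passed in edgeR with or without the block.

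**Figure D4:**
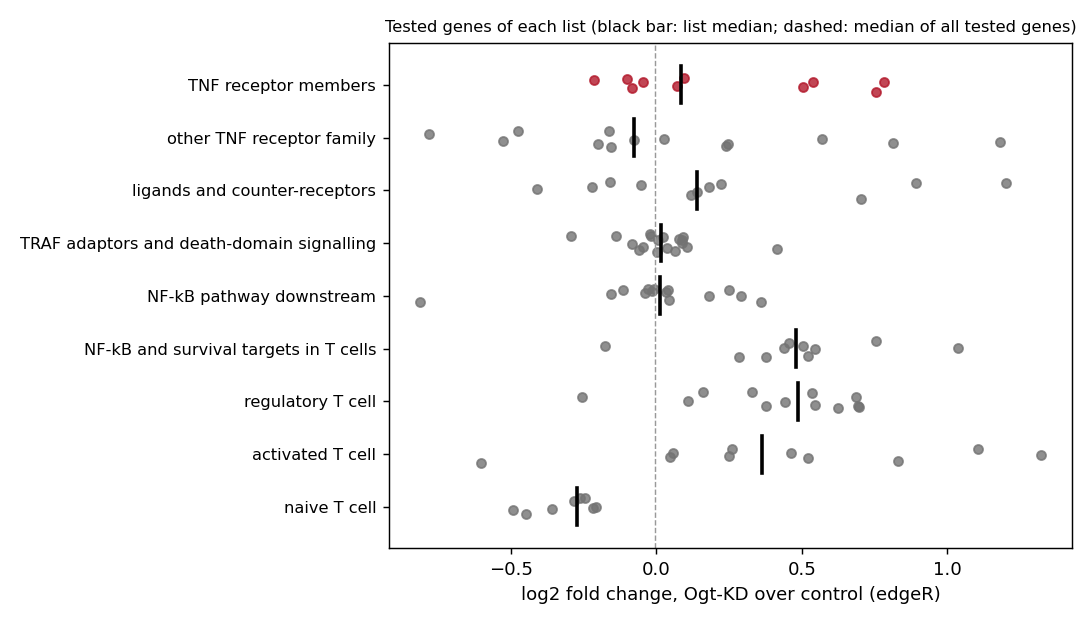
Fold change on the log2 scale, Ogt-KD over control (x axis, edgeR), for each tested gene of 9 lists, with the list median as a black bar and the median of all tested genes as a dashed line. The receptor genes (red) fall into 4 near 0.5 to 0.8 and 6 around 0, signalling lists have medians of 0.02 and 0.01, and regulatory T cell markers a median of 0.49.

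Of the 10 receptor genes, 6 lie on mouse chromosome 4. On GRCm38 Tnfrsf4 is at 156013843 to 156016612 and Tnfrsf18 at 156026164 to 156028895, both on the plus strand and 9.55 kb apart. Tnfrsf9 is at 150914562 to 150946102, and Tnfrsf1b at 145213463 to 145246870, next to Tnfrsf8. Neighbours are named here after their values were seen. The tested genes within 100 kb of this Tnfrsf4 and Tnfrsf18 pair ran from -0.19 for 9430015G10Rik to 0.42 for C1qtnf12 (log2 fold change), with Sdf4, directly upstream of Tnfrsf4, at 0.10 (SE 0.11). Around Tnfrsf9, Park7 had 0.01 (SE 0.08), Camta1 -0.12 (SE 0.11) and the clock gene Per3 0.53 (SE 0.20).

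Some members share sequence with other genes. Gm16008 on the opposite strand covers 414 of the 1524 exon bases of Tnfrsf18 (27.2%), and had 134 reads in the Ogt-KD and 111 in the control libraries in all, against 1049, 1280 and 1716 reads of Tnfrsf18 in the Ogt-KD and 948, 1135 and 734 in the control libraries. Without a stated strand setting, reads of the pair cannot be told apart. Camta1 overlaps Tnfrsf9 on the opposite strand and shares no exon bases with it.

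Likeness of pattern was measured as Pearson's r of log2 CPM over the 6 libraries, among 9251 genes. It is a description, since all genes share libraries and the group difference is part of it. Tnfrsf4 was most like Glrx (r = 0.994), which encodes glutaredoxin, Itgb8 (0.993), an integrin chain that frees TGF-beta, Ttc39c (0.993), Il10ra (0.991), the interleukin 10 receptor chain, and Nrn1 (0.990). Tnfrsf9 was most like Hopx (0.993), Penk (0.987), which encodes the enkephalin precursor, Lpgat1 (0.981), Gprin3 (0.974) and Ppp1r14a (0.973). Tnfrsf18 was most like Nt5c2 (0.991), Wsb1 (0.979), Rsrc1 (0.978), Dok1 (0.974) and Gcnt1 (0.972). No gene was on 2 of these lists.

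Among the members, r was 0.94 between Tnfrsf4 and Tnfrsf18, 0.90 between Tnfrsf4 and Tnfrsf1b, and 0.85 between Tnfrsf4 and Tnfrsf9. Tnfrsf9 and Tnfrsf18 had 0.78. Against Tnfrsf4, Tnfrsf1a had -0.58, Cd27 -0.46, Fas -0.21, Tnfrsf26 -0.12, Tnfrsf14 0.15 and Tnfrsf25 0.48.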

How the data were processed

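The authors deposited raw read counts per Ensembl gene for 6 libraries, with the authors' FPKM, their mean normalised signal per group (not used), and their log2 fold change, p-value and adjusted p for Ogt-KD over control. The submitters' processing notes list mm9, TopHat2 2.0.9 and Bowtie2 2.0.6. Counting tool, strand setting and test: not given in the sources used here. Of 54532 gene identifiers 53585 had identical coordinates in GENCODE M21, so positions are on GRCm38, not mm9.

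Counts were tested with edgeR 4.0.16 (quasi-likelihood, robust, TMM, filterByExpr) in R 4.3.3, adjusted by Benjamini-Hochberg over 16075 genes at 0.05. DESeq2 1.42.0, limma 3.58.1 and 15 alternatives in all were run, after tests on simulated data. Samples were grouped by title. The design text gives 3 mice a group and 3 libraries were deposited for each, so replicates were taken as separate mice. Intervals and zero limits cover no duplicate reads, since there were no molecular identifiers.

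The labels state no pairing, but deviations from group means of same-numbered libraries correlated at 0.109, 0.346 and 0.523, all above 0.1, so blocked values are printed where they change a call. One pair of different numbers, Ogt-KD replicate 1 and control replicate 2, reached 0.267, and a pairing read from the counts can make p-values too small.

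The members and lists were chosen with earlier results of these data known. Named genes were all members, the ligands and adaptors described with them, Ogt, Foxp3 and Ikzf2, up to 4 genes per list with the smallest p, and the 5 genes most like Tnfrsf4, Tnfrsf9 and Tnfrsf18 among those with an average log2 CPM of at least 3. Genes with clone, predicted or receptor segment names were left out of the last.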

Additional observations from a re-analysis of the deposited data

How the results depend on the processing

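Genes called numbered 1 in edgeR, 47 with the replicate block, 111 in DESeq2, 4 with no filter, 35 without replicate 3 of both groups, and 1 to 2 with 1 library left out. Receptor genes called numbered 0, against 1 with the replicate block (Tnfrsf4), 2 in DESeq2 (Tnfrsf4 and Tnfrsf9), and 0 with 1 library left out. Alternatives added after seeing the data kept the replicate block and dropped 1 replicate number from both groups. Then 295, 2 and 295 genes and 4, 0 and 2 receptor genes were called without replicates 1, 2 and 3. The 4 were Tnfrsf4, Tnfrsf9, Tnfrsf18 and Tnfrsf1b, and the 2 were Tnfrsf4 and Tnfrsf1b. The cause of these differing counts was not tested. Each of these fits estimated replicate and group terms from fewer libraries than the main fit, so its calls rest on little replication.

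Over the 15 alternatives the log2 fold change ran from 0.68 to 0.86 for Tnfrsf4, 0.62 to 0.90 for Tnfrsf9, 0.38 to 0.62 for Tnfrsf18, 0.41 to 0.70 for Tnfrsf1b, -0.29 to -0.10 for Tnfrsf1a and 0.0081 to 0.19 for Tnfrsf25. With 1 library left out, values changed sign for Tnfrsf14 (-0.0323 to 0.239), Tnfrsf26 (-0.173 to 0.0688), Cd27 (-0.200 to 0.0071) and Fas (-0.467 to 0.0883). In the blocked fits Tnfrsf14 had -0.0445 without replicate 1 and Tnfrsf26 0.12 without replicate 2. Beyond Tnfrsf4 the block changed the call of no other receptor gene. Tnfsf4 and Cd70, with at most 22 reads a library, are limited by depth.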
